A study of Mus musculus with 5 samples.

Results

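The aminoacyl-tRNA synthetases are the enzymes that attach each amino acid to its transfer RNA, and 36 of their genes were examined in erythroblasts labelled as lacking or having Flvcr. The members were taken by gene symbol, 20 for enzymes of the cytosol and 16 for enzymes of the mitochondrion. Of the 36, 35 were among the 19057 genes that the array annotation names, with 77 probes in all. Of these, 32 passed the filter on dim signals described below, and Dars, the cytosolic aspartate enzyme, was not analysed here. The methionine enzyme of the cytosol carries its current symbol, Mars1. Erythroblasts, the nucleated precursors of red cells, came from the marrow of C57BL/6J mice, and their total RNA was hybridised to 5 Illumina bead arrays. The 2 groups were labelled by genotype as Flvcr deleted (2 arrays) and wild type (3 arrays). The gene, now Flvcr1, encodes a heme exporter. The sources used here do not give the driver or timing of the deletion, the age of the mice, how the cells were isolated or whether replicates came from separate animals. The p-values therefore take in no more than the variation among these 5 samples, part of which may be technical.

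Each cell keeps separate sets of synthetases for protein synthesis in the cytosol and for the few proteins made inside mitochondria, and nuclear genes encode both. The enzymes fall into class I and class II by the fold of the catalytic domain. In animals several cytosolic enzymes sit together in a multisynthetase complex held by scaffold proteins. A shortage of charged tRNA activates the kinase GCN2, and the transcription factor ATF4, which is made more when eIF2 is phosphorylated, raises many cytosolic synthetase genes. In erythroblasts eIF2 is also phosphorylated by the heme-regulated kinase HRI, the product of Eif2ak1, when heme is low.

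Values are log2 signals, and a difference is the mean of the arrays labelled Flvcr-deleted minus the mean of those labelled wild-type. A signal counted as above background when it exceeded a floor of 6.83, and a gene was tested when a probe of it did so on at least 2 arrays, the brightest such probe standing for the gene. Of 10076 genes tested, 39.3% passed an adjusted p of 0.05 (limma, with Benjamini-Hochberg adjustment over all genes) and are referred to as called, 21.8% higher and 17.5% lower, with a median log2 difference of 0.01 over all genes. Arrays of 1 group correlated with r of 0.989 to 0.992 and arrays of different groups with r of 0.948 to 0.954. Signals of the Flvcr1 probe itself were 9.88 and 9.75 under the label Flvcr-deleted and 8.16, 8.32 and 8.25 under the label wild-type, a difference of 1.57 (SE 0.10). That is opposite to a loss of the transcript. Where this probe lies relative to the deleted part is not known here, so every direction below rests on the labels. On the linear scale, the summed signal of 6 erythroid markers was 75747 to 79713 in the arrays labelled Flvcr-deleted and 96618 to 98444 in the others, with 4 of the 6 called lower. A further erythroid marker, Epb42, was not above the floor on 2 arrays.

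Cytosolic synthetase transcripts were mostly higher in the arrays labelled Flvcr-deleted. Of 19 cytosolic genes tested, 12 were called higher, 2 were called lower and 5 were not called, against 21.8% of all genes higher and 17.5% lower. Of 13 mitochondrial genes tested, 8 were called higher, none was lower and 5 were not called. The median log2 difference was 0.74 for the cytosolic genes, with a range from -0.97 to 1.69, and 0.50 for the mitochondrial genes, with a range from -0.07 to 0.90. Of the called genes, 5 cytosolic and 0 mitochondrial ones were higher by a log2 difference of at least 1. The difference between both sets was not tested. Without Flvcr-deleted replicate 1 the mitochondrial median was 0.29. Because the signal of a probe depends on its sequence, levels are set side by side only within a gene.

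**Figure D1:**
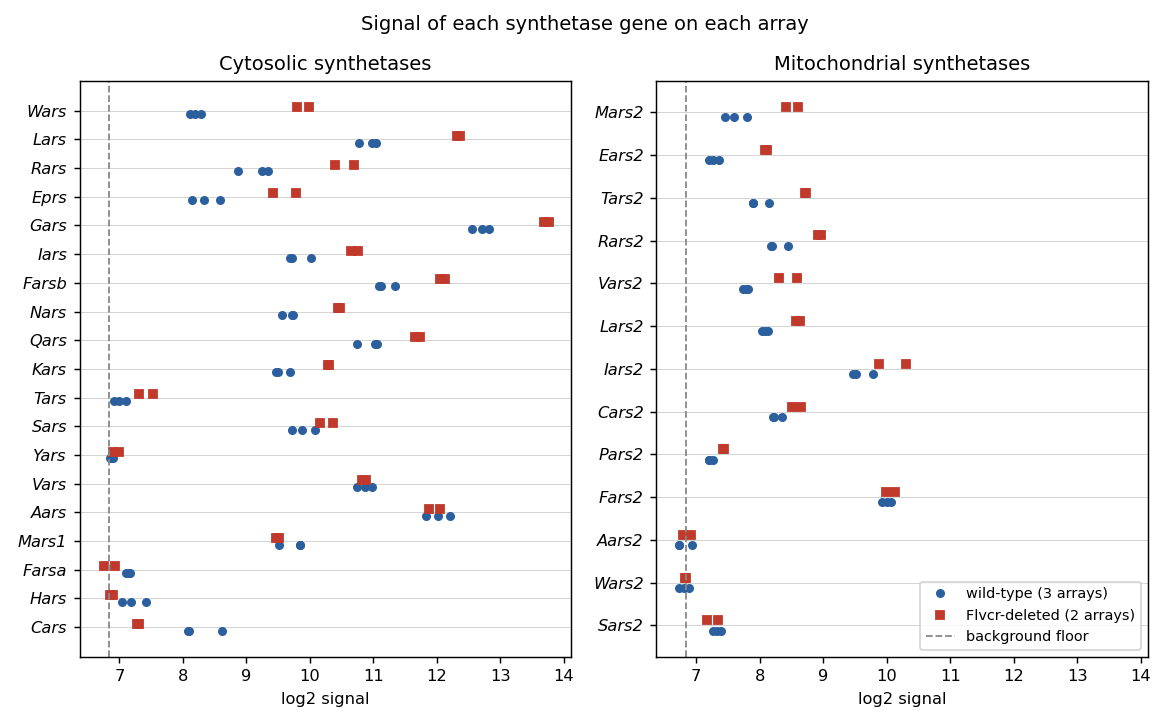
Log2 signal (horizontal axis) of every tested synthetase gene (rows, ordered by difference) on each array, cytosolic genes on the left and mitochondrial genes on the right, with squares for the 2 arrays labelled Flvcr-deleted, circles for the 3 labelled wild-type and a dashed line at the background floor of 6.83. The Wars squares at 9.79 and 9.98 lie clear of the circles, which end at 8.28, while the Vars symbols overlap and the Cars squares at 7.30 and 7.28 lie below its circles.

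Averaged over the 19 cytosolic genes, the log2 signal was 9.93 and 9.99 on the 2 arrays labelled Flvcr-deleted and 9.40, 9.50 and 9.44 on the 3 labelled wild-type. The mean over the 13 mitochondrial genes was 8.34 and 8.34 against 7.88, 7.92 and 7.97. Both averages were higher in each array labelled Flvcr-deleted than in any labelled wild-type, by 0.52 and 0.42 on average. Gene by gene, the groups did not overlap for 13 cytosolic and 9 mitochondrial genes that read higher, and for 3 cytosolic genes and no mitochondrial gene that read lower, against 59.0% of all genes tested, 32.3% higher and 26.8% lower. No member passed the floor through 1 group alone, and 29 of the 32 were above it on all 5 arrays.

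The largest difference among the members was that of Wars, which charges tRNA with tryptophan. Its signal was 9.79 and 9.98 on the 2 arrays labelled Flvcr-deleted and 8.11, 8.28 and 8.19 on the 3 labelled wild-type, means of 9.89 ± 0.13 (SD, n = 2) and 8.19 ± 0.08 (SD, n = 3). The difference of 1.69 (SE 0.11), or 3.24-fold, passed the test (limma, adjusted p = 1.19e-05) and the groups lay far apart. All 4 Wars probes above the floor were called higher, at 1.69, 0.70, 0.62 and 0.41, the brightest giving the largest value, and their mean differed by 0.85. In mammals the Wars gene is also known as a target of interferon.

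Transcripts of most enzymes of the multisynthetase complex rose. Of the 7 tested, 6 were called higher, none lower and 1, Mars1, was not called, with a median log2 difference of 0.90. The shares over all genes were 21.8% higher and 17.5% lower. Lars, the leucine enzyme, which also senses leucine for mTORC1, read 12.37 and 12.31 against 10.78, 11.04 and 10.98. It rose by 1.41 (SE 0.11, 2.65-fold, limma, adjusted p = 2.74e-05) with no overlap between groups. Rars, the arginine enzyme, read 10.40 and 10.69 against 8.87, 9.34 and 9.25. It rose by 1.39 (SE 0.16, 2.62-fold, adjusted p = 1.65e-04). Eprs, a single chain that charges both glutamate and proline tRNAs, read 9.42 and 9.79 against 8.14, 8.58 and 8.33. It rose by 1.25 (SE 0.16, 2.39-fold, adjusted p = 2.78e-04), and its 3 probes were all called higher, at 1.25, 0.69 and 0.62. Iars, the isoleucine enzyme, read 10.65 and 10.76 against 9.71, 10.01 and 9.69, a rise of 0.90 (SE 0.12, adjusted p = 4.58e-04). Its 2 probes above the floor gave 0.90 and 0.94. Qars, the glutamine enzyme, rose by 0.75 (SE 0.12, adjusted p = 0.00114), and Kars, the lysine enzyme, read 10.29 and 10.30 against 9.49, 9.69 and 9.47, a rise of 0.74 (SE 0.11, adjusted p = 5.96e-04). A dimmer Kars probe gave 0.26 and did not pass (adjusted p = 0.110 over all probes kept). Of 3 Qars probes kept, 2 were called higher, at 0.75 and 0.71, and 1 was not (0.34, limma, adjusted p = 0.0675 over all probes kept). Mars1 read 9.46 and 9.52 against 9.85, 9.51 and 9.84, a difference of -0.24 (SE 0.13, adjusted p = 0.167), and the groups overlapped. Without wild-type replicate 2 it was called lower (-0.36, adjusted p = 0.0287; adjusted p up to 0.421 without another array).

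Transcripts of the 3 scaffold proteins of that complex rose as well. Aimp1, which is also secreted as a cytokine precursor, read 10.49 and 10.49 against 9.58, 9.60 and 9.61, a rise of 0.89 (SE 0.09). Eef1e1 rose by 0.69 (SE 0.13) and Aimp2 by 0.69 (SE 0.12; 0.44 as the mean of its probes), with the groups apart for each. Adjusted p-values of the 3 lay between 1.02e-04 and 0.00243 (limma).

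Outside the complex, 6 of 12 cytosolic genes were called higher, 2 lower and 4 were not called, with a median of 0.23. Among all genes, 21.8% were called higher and 17.5% lower. Gars, the glycine enzyme, read 13.77 and 13.68 against 12.55, 12.71 and 12.82. It rose by 1.03 (SE 0.11, 2.04-fold, limma, adjusted p = 1.28e-04), while a Gars probe near the floor, at 6.60 to 6.94, differed by 0.09 and the mean of both by 0.56. Gars and Kars each encode both the cytosolic and the mitochondrial form of their enzyme, and these probes do not say which form differs. Nars, the asparagine enzyme, rose by 0.79 (SE 0.10, adjusted p = 3.39e-04) from a single probe. Tars, the threonine enzyme, read 7.52 and 7.32 against 6.91, 6.99 and 7.10, a rise of 0.42 (SE 0.11, adjusted p = 0.0145). Its other probe, near the floor, gave -0.05, and the mean of both gave 0.19 (adjusted p = 0.128). Tars was also not called when Flvcr-deleted replicate 1 was left out (adjusted p = 0.139), nor when wild-type replicate 1 was (adjusted p = 0.0551). Sars, the serine enzyme, passed by little (0.38, SE 0.13, adjusted p = 0.0475). It was called in 1 of 5 fits that left out an array, those without Flvcr-deleted replicates 1 and 2 and wild-type replicates 1 and 2 giving adjusted p = 0.0609, 0.281, 0.145 and 0.0876. The Sars call was also lost with no floor (adjusted p = 0.0689), with normexp (0.0565) and with a trended robust prior (0.0605). The other Sars probe above the floor was called higher (0.29, limma, adjusted p = 0.0435 over all probes kept), and the mean of both gave 0.33 (adjusted p = 0.0217).

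Phenylalanine tRNA is charged in the cytosol by an enzyme built of alpha and beta subunits, and their transcripts differed in opposite directions. Farsb, the beta subunit, read 12.12 and 12.04 against 11.12, 11.35 and 11.09. It rose by 0.90 (SE 0.11, limma, adjusted p = 2.75e-04), and its other probe gave 0.98. Farsa, the alpha subunit, read 6.76 and 6.93 against 7.10, 7.16 and 7.17 on its only probe, near the floor and with 1 of the 2 arrays labelled Flvcr-deleted below it. Its fall by 0.30 (SE 0.10, adjusted p = 0.0413) did not pass whichever array was left out (adjusted p between 0.0586 and 0.302).

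Cars, the cysteine enzyme, went the other way from most members. Its brightest probe read 7.30 and 7.28 where the label was Flvcr-deleted and 8.62, 8.10 and 8.08 where it was wild-type. The signal fell by 0.97 (SE 0.16, 1.96-fold lower, limma, adjusted p = 0.00144) with the groups apart. This probe and that of Hars are annotated to a cDNA clone, whereas the probes used for the other 30 members are annotated to a RefSeq mRNA. The 2 Cars probes annotated to the RefSeq mRNA lay at 6.59 to 6.90, about the floor, and differed by 0.03 and -0.01, and the mean of the 3 probes fell by 0.32 (adjusted p = 0.0221). The fall is therefore that of the clone's probe, and whether it stands for the coding transcript was not tested.

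The 4 other cytosolic genes not called were Hars, Aars, Vars and Yars, the histidine, alanine, valine and tyrosine enzymes. Aars read 11.87 and 12.05 against 12.21, 12.01 and 11.83, a difference of -0.06 (SE 0.13, adjusted p = 0.796). Vars read 10.82 and 10.88 against 10.74, 10.98 and 10.87, a difference of -0.01 (SE 0.11, adjusted p = 0.942), and its 3 probes gave -0.24, -0.01 and 0.06. For both genes the groups overlapped. Yars, near the floor, differed by 0.08 (SE 0.09). Hars read 6.86 and 6.90 against 7.42, 7.19 and 7.04, a difference of -0.34 (SE 0.12, adjusted p = 0.0597) with the groups apart. Hars was called lower without wild-type replicate 3 (-0.43, adjusted p = 0.0221; adjusted p up to 0.210 without another array), with the mean of its probes (-0.28, adjusted p = 0.0368), with normexp (-0.48, adjusted p = 0.0295) and with a trended robust prior (adjusted p = 0.0178).

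**Figure D2:**
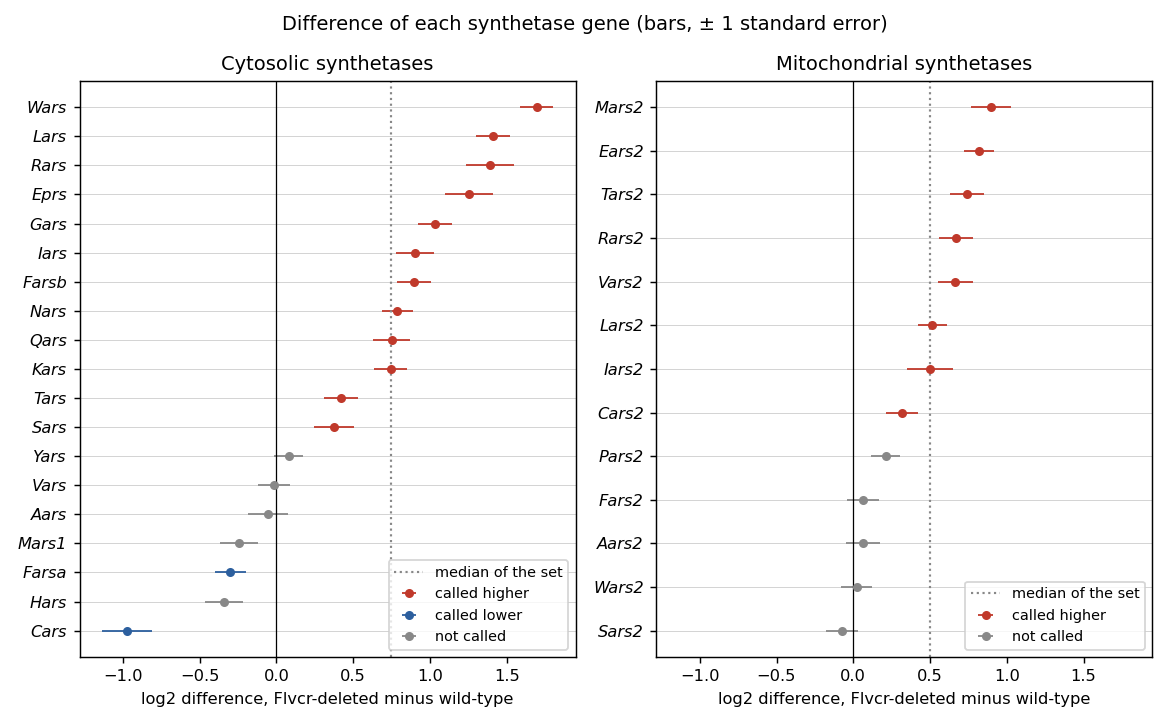
Log2 difference (horizontal axis, labelled Flvcr-deleted minus labelled wild-type) of every tested synthetase gene with bars of 1 standard error, cytosolic genes on the left and mitochondrial genes on the right, coloured by the limma call, and a dotted line at the median of each set. The cytosolic genes run from -0.97 for Cars to 1.69 for Wars around a median of 0.74, and the mitochondrial genes from -0.07 for Sars2 to 0.90 for Mars2 around a median of 0.50.

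Among the mitochondrial enzymes, 8 genes rose, each by less than a doubling of signal. Mars2, which charges the initiator and elongator methionine tRNA of mitochondria, read 8.61 and 8.42 against 7.45, 7.60 and 7.81. It rose by 0.90 (SE 0.13, 1.86-fold, limma, adjusted p = 5.98e-04), and its other probe gave 0.66. Ears2, the glutamate enzyme, read 8.12 and 8.08 against 7.27, 7.20 and 7.36. It rose by 0.82 (SE 0.10, 1.77-fold, adjusted p = 2.22e-04). Tars2, the threonine enzyme, read 8.73 and 8.71 against 7.90, 8.14 and 7.89, a rise of 0.74 (SE 0.11, adjusted p = 7.90e-04). These 3 genes had the largest differences of the mitochondrial set, and no array labelled wild-type reached one labelled Flvcr-deleted.

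Rars2, the arginine enzyme, read 8.92 and 8.96 against 8.19, 8.17 and 8.45. It rose by 0.67 (SE 0.11, adjusted p = 0.00161), and its 3 probes above the floor gave 0.67, 0.73 and 0.82, all called. Vars2, the valine enzyme, read 8.30 and 8.58 against 7.78, 7.74 and 7.81, a rise of 0.66 (SE 0.11, adjusted p = 0.00153). Lars2, the leucine enzyme, read 8.57 and 8.63 against 8.13, 8.03 and 8.08, a rise of 0.51 (SE 0.09, adjusted p = 0.00239). For each of these genes the groups lay apart.

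The other calls of the mitochondrial set were less stable. Iars2, the isoleucine enzyme, read 10.30 and 9.87 against 9.47, 9.51 and 9.78, a rise of 0.50 (SE 0.15, adjusted p = 0.0267). Its replicate labelled Flvcr-deleted 1 stood above the other, and without that array the difference was 0.29 (adjusted p = 0.241). It also missed the threshold without wild-type replicate 1 or 2 (adjusted p = 0.103 and 0.0640). The other Iars2 probe was called higher (0.42, limma, adjusted p = 0.0116 over all probes kept), and the mean of both gave 0.46 (adjusted p = 0.00415). Cars2, the cysteine enzyme, read 8.64 and 8.51 against 8.22, 8.36 and 8.21, a rise of 0.32 (SE 0.10, adjusted p = 0.0362). It was called in 1 of 5 fits that left out an array, the one without wild-type replicate 2, and adjusted p reached 0.235 without Flvcr-deleted replicate 1, with 0.0729, 0.0986 and 0.0803 when Flvcr-deleted replicate 2, wild-type replicate 1 and wild-type replicate 3 were left out in turn. The mean of its 2 probes gave 0.19 (adjusted p = 0.147), and its call was also lost with normexp (adjusted p = 0.0525) and a trended robust prior (0.0753).

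Pars2, Fars2, Aars2, Wars2 and Sars2, the proline, phenylalanine, alanine, tryptophan and serine enzymes, were not called, with differences of 0.21, 0.06, 0.06, 0.02 and -0.07 (adjusted p between 0.108 and 0.904). Pars2 was the 1 of these 5 whose groups did not overlap, at 7.44 and 7.43 against 7.19, 7.21 and 7.26. Aars2 and Wars2 were above the floor on 1 array of each group. Hars2, Nars2 and Yars2 did not pass the filter. Their 4 probes lay between 6.63 and 6.86 on every array, so no difference could be measured.

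For 10 amino acids a cytosolic and a mitochondrial enzyme whose gene symbols match apart from the final digit were both tested. Among these pairs, both were called higher for 4, isoleucine, leucine, arginine and threonine. The cytosolic enzyme alone was called higher for 2, serine and tryptophan, and the mitochondrial enzyme alone for 3, cysteine, methionine and valine, while neither was for alanine. The cytosolic difference was the larger for 5 amino acids and the mitochondrial one for 5. The widest gaps were those of tryptophan, with Wars at 1.69 and Wars2, near the floor, at 0.02, and of cysteine, with Cars at -0.97 and Cars2 at 0.32. That Cars value is from the probe annotated to a cDNA clone, and its probes annotated to the RefSeq mRNA, about the floor, differed by 0.03 and -0.01. For methionine, Mars1 differed by -0.24 and Mars2 by 0.90. Enzymes without such a pairing of symbols are not in these counts. They are Eprs (1.25), which serves glutamate beside Ears2 (0.82) and proline beside Pars2 (0.21), and Farsa (-0.30) and Farsb (0.90), which serve phenylalanine beside Fars2 (0.06). Of these 6 genes, Eprs, Ears2 and Farsb were called higher and Farsa lower. Differences between the enzymes of a pair come from different probes and were not tested.

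**Figure D3:**
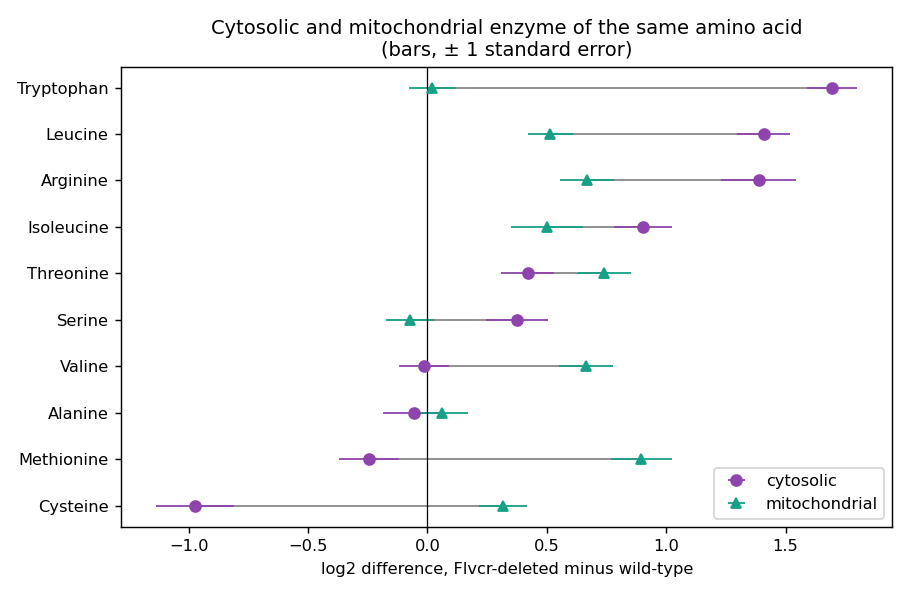
Log2 difference (horizontal axis, labelled Flvcr-deleted minus labelled wild-type) of the cytosolic (circle) and mitochondrial (triangle) enzyme for each of the 10 amino acids with a pair of matching gene symbols, with bars of 1 standard error and a line joining each pair. Leucine, arginine and isoleucine have both symbols to the right of 0, and methionine and cysteine have the mitochondrial symbol to the right of 0 and the cytosolic one to the left.

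Taken over single probes, 60 of 77 passed the floor, 41 cytosolic and 19 mitochondrial. In a fit over all 17729 probes kept, 23 cytosolic probes were called higher, 2 lower and 16 were not called, and 12 mitochondrial probes were called higher, none lower and 7 were not called. Over all probes kept 18.7% were called higher and 16.6% lower. Of 21 members with several kept probes, the probes had 1 sign in 18 and both signs in 3, namely Cars, Tars and Vars. In 10 of the 21 every kept probe was called higher, and no member had a probe called higher beside one called lower. Probes of a member share its RNA and are not replicates.

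**Figure D4:**
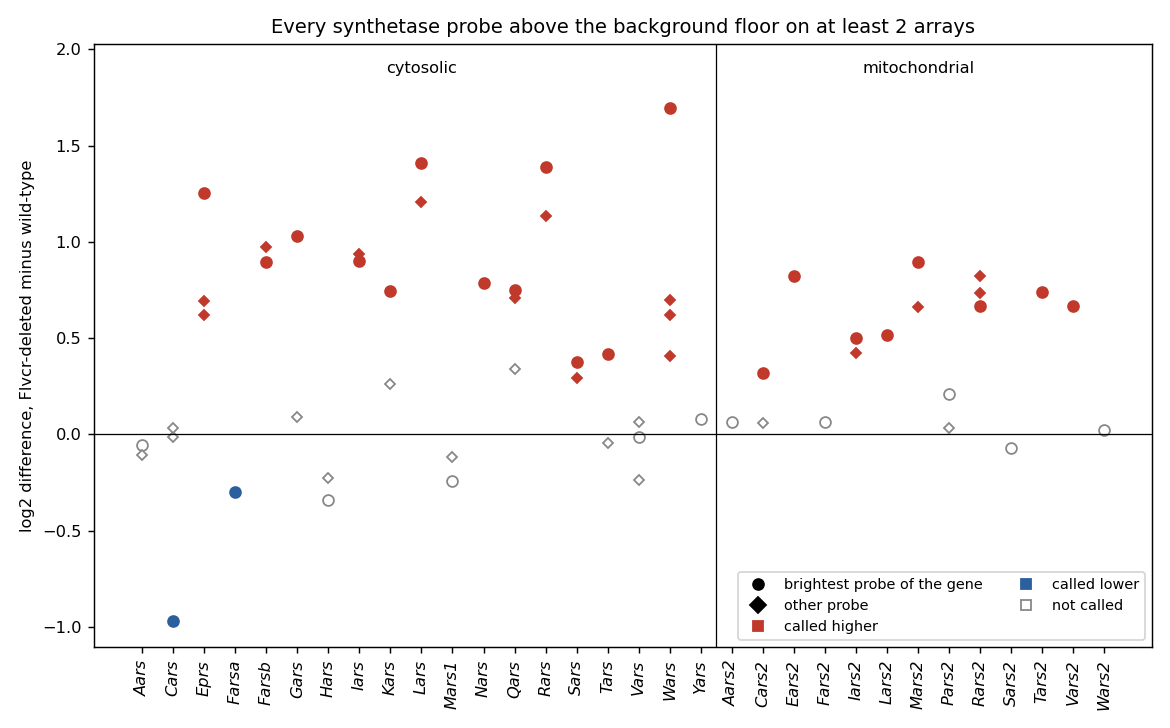
Log2 difference (vertical axis, labelled Flvcr-deleted minus labelled wild-type) of each of the 60 synthetase probes that passed the floor, by gene, with circles for the brightest probe of a gene, diamonds for its other probes and fill by the limma call over all probes. The 4 Wars probes lie between 0.41 and 1.69, the 3 Rars2 probes between 0.67 and 0.82, and the Cars probes at -0.97, -0.01 and 0.03.

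By fold of the catalytic domain, 13 of 18 class I genes were called higher, 1 lower and 4 were not called (median 0.67), and 8 of 15 class II genes were higher, 1 lower and 6 were not called (median 0.38). Eprs, which carries both kinds of domain, counts in each. Of 12 cytosolic genes commonly listed as targets of ATF4, 8 were called higher, 1 lower and 3 were not called, with a median of 0.60. Of the 7 other cytosolic genes tested, 4 were higher, 1 lower and 2 were not called, with a median of 0.74. These lists overlap, and differences between them were not tested. Of all genes tested, 21.8% were called higher and 17.5% lower.

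To set the members beside regulatory sequence, the promoter windows of RefSeq (GRCm38.p6) from 250 bases before to 50 after a gene's start were searched on both strands for 3 patterns. TGATGCAA is the core of the C/EBP-ATF response element bound by ATF4 with a C/EBP partner, TGATGNAA is a looser form that contains it, and CACGTG is the E-box bound by MYC and MAX. Of 26 members whose promoter was searched, 3 held TGATGCAA, 4 held TGATGNAA and 4 held CACGTG, compared with 1.03%, 4.51% and 8.09% of 27025 genes. The windows below show each member that held TGATGNAA, 30 bases around 1 match on the gene's own strand, with the match in capitals. TTGCATCA and TTTCATCA are matches on the opposite strand.
Yars (chr4:129189895-129189924, + strand): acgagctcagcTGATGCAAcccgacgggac
Iars (chr13:49682126-49682155, + strand): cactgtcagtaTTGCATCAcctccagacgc
Tars (chr15:11399655-11399684, - strand): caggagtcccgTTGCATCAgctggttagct
Gars (chr6:55037960-55037989, + strand): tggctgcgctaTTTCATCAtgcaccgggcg

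Of these 4 genes, Gars, Iars and Tars were called higher and Yars was not called. The E-box was held by Iars and Tars as well, and by 2 members without the other pattern, Farsb and Ears2, both of them called higher, whose 30 bases around the match follow.
Farsb (chr1:78488919-78488948, - strand): ttagacaggcatCACGTGagacagcccaag
Ears2 (chr7:122067048-122067077, - strand): cgcgaaggagccCACGTGtgtgtttctagt
The whole stretch before the start is given for Gars, which rose by 1.03, with the same patterns in capitals.
Gars (chr6:55037751-55038000, + strand): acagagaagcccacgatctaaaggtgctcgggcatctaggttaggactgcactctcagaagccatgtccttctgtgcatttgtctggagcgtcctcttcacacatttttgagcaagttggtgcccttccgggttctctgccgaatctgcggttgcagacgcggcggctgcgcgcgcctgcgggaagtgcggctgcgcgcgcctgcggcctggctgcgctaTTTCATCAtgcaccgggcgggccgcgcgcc
A match is a description of these letters and not evidence of binding, and the patterns were present both in genes that rose and in Yars, which was not called.

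Other genes that make and handle tRNA were read in the same fit, in which 21.8% of all genes were called higher and 17.5% lower. Of 20 genes of tRNA transcription, processing and export, 11 were called higher, 2 lower and 7 were not called, with a median of 0.46. One of those called higher, Pop1, passed the filter through the arrays labelled Flvcr-deleted alone. Its call was lost without wild-type replicate 1 or 3 (limma, adjusted p = 0.0692 and 0.0546). Without Flvcr-deleted replicate 1, which leaves 1 array in that group, Pop1 and Tsen54 lost their calls (differences of 0.31 and 0.38). Xpot, which exports tRNA from the nucleus, read 10.82 and 11.06 against 9.27, 9.56 and 9.16, a rise of 1.61 (SE 0.14, 3.05-fold, limma, adjusted p = 4.28e-05). Pop4 of RNase P, which trims the leader of tRNA (1.36, SE 0.10), Elac2, which trims the trailer (0.92, SE 0.11), and Trnt1, which adds the terminal CCA (0.88, SE 0.11), had the next largest differences. The genes that fell were Maf1, the repressor of RNA polymerase III (-0.56, SE 0.13), and Brf1, a subunit of its initiation factor TFIIIB (-0.64, SE 0.17). The call of Maf1 was lost without Flvcr-deleted replicate 2 (adjusted p = 0.0815). Brf1 was not called with Flvcr-deleted replicate 1 left out (-0.34, adjusted p = 0.112) or with wild-type replicate 1 left out (adjusted p = 0.0589).

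Of 11 genes of mitochondrial tRNA charging and processing tested, 5 were called higher, none lower and 6 were not called, with a median of 0.35. The shares over all genes were 21.8% higher and 17.5% lower. Pus1, a pseudouridine synthase (0.91, SE 0.11; 0.57 as the mean of its probes), Qrsl1, a subunit of the amidotransferase that completes mitochondrial glutaminyl-tRNA (0.73, SE 0.12), Gtpbp3, which modifies the wobble base (0.62, SE 0.11), and Trmt10c of mitochondrial RNase P (0.58, SE 0.13) rose most. The other gene called higher, Trit1, was not called without wild-type replicate 1 or 2 (limma, adjusted p = 0.113 and 0.0947). Its call was also lost without Flvcr-deleted replicate 1 or 2 (differences of 0.33 and 0.39), which leaves 1 array in that group. Trmt10c was not called without Flvcr-deleted replicate 2 (adjusted p = 0.0662), where 3 genes of the list were higher. Of 4 genes of tRNA editing tested, 2 were higher, Dtd1, a deacylase of mischarged D-amino acids (1.00, SE 0.15), and Prorsd1 (0.62, SE 0.18), which missed the threshold when Flvcr-deleted replicate 1 (0.34, adjusted p = 0.187) or wild-type replicate 1 (adjusted p = 0.0900) was left out. Tarsl2, a further cytosolic threonine enzyme outside the list of members, differed by -0.23 (SE 0.10, adjusted p = 0.107).

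In the amino acid response that ATF4 drives, 12 of 17 genes tested were called higher, 1 lower and 4 were not called, with a median of 0.49. The shares over all genes were 21.8% higher and 17.5% lower. The largest rises were those of Trib3, a pseudokinase (3.42, SE 0.24), Psat1 of serine synthesis (2.71, SE 0.12) and Chac1, which degrades glutathione (2.70, SE 0.14). The gene called lower was Ppp1r15a (-1.83), which differed by -1.89 to -1.76 over the alternatives of processing. The differences were 0.45 (SE 0.10) for Asns, asparagine synthetase, 0.55 (SE 0.18, adjusted p = 0.0344) for Atf4 itself, and 0.03 (SE 0.19, adjusted p = 0.937) for Ddit3, which encodes CHOP. The Atf4 call was lost with Flvcr-deleted replicate 1, Flvcr-deleted replicate 2 or wild-type replicate 3 left out (adjusted p = 0.115, 0.104 and 0.0513), and with no floor (adjusted p = 0.0695). Shmt2, Slc7a11 and Sesn2, also called higher, did not keep their calls in every alternative. With an array left out, Shmt2 differed by 0.34 to 0.56 and Slc7a11 by 0.41 to 0.96. Sesn2 was not called with the mean of its probes (0.11, limma, adjusted p = 0.330) or without wild-type replicate 1 (adjusted p = 0.0505). This list was chosen with earlier results of these arrays known.

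**Figure D5:**
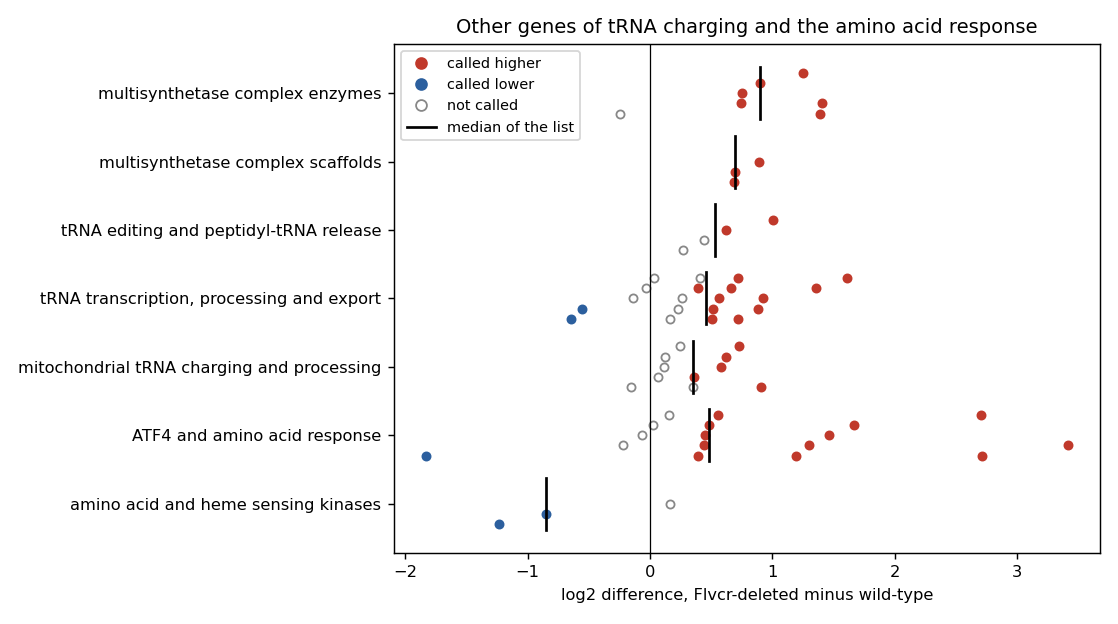
Log2 difference (horizontal axis, labelled Flvcr-deleted minus labelled wild-type) of the tested genes of 7 lists, with fill by the limma call and a black line at the median of each list. The enzymes and scaffolds of the multisynthetase complex have medians of 0.90 and 0.69, and tRNA transcription, processing and export one of 0.46.

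Summed marker signals of most other marrow cell types were lower in the arrays labelled Flvcr-deleted, while those of macrophages overlapped between groups. Of all genes tested, 21.8% were called higher and 17.5% lower. The summed linear signal of 14 neutrophil markers tested was 6418 to 10821 in the arrays labelled Flvcr-deleted and 31667 to 36414 in the others, with 5 of 14 called lower. That of 6 mast cell, basophil and eosinophil markers was 1056 to 1065 against 5605 to 8372, with 5 of 6 lower. Of 3 megakaryocyte markers 2 were lower (432 to 490 against 1082 to 1147), of 4 B cell markers 2 (431 to 446 against 617 to 818) and of 2 T and NK cell markers 1 (303 to 485 against 777 to 1301). For macrophages, 1 of 11 was higher and 1 lower (2017 to 2917 against 2670 to 4230). Those above the floor in 1 group alone were Cd79b, Igll1 and Vpreb1 of B cells, Mcpt8 of basophils and Cx3cr1 of macrophages. Such genes entered the test only through the group where they read higher. Counts and sums that hold them, above all those of B cells, are therefore a description and no test of a difference. The markers that did not pass the floor were Mmp8 of neutrophils, Ms4a2 of mast cells and basophils, Pf4 and Ppbp of megakaryocytes, Pax5 of B cells, Cd3g of T cells, and Cd5l, Marco, Siglec1 and Fcgr1 of macrophages. No background was taken off these sums, so a ratio of sums between groups is not a ratio of marker RNA, least of all for dim markers. In bulk RNA, fewer cells of a type and less RNA per cell cannot be told apart. The part of these cells in the synthetase differences was not tested.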

How the data were processed

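Total RNA of 5 samples was labelled as biotinylated cRNA, per the labels' protocols, and read on Illumina bead arrays. The values used are the log2 signals the authors deposited. For log base, software and normalization the sources used here give nothing, and log2 was inferred from the range of 6.35 to 15.06, which all arrays share. A second table, of 10 columns of signals and detection p-values, was not used because its column names match no sample label.

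Of 45281 probes, 34885 had 1 gene symbol in the platform annotation, 18 several and 10378 none. Mars was matched to Mars1 through RefSeq. The floor was the most frequent signal, 6.70, plus 1.64 times the spread on its lower side, 0.0823, and 17729 probes exceeded it on at least 2 arrays. Genotype was the only term in lmFit and eBayes (limma 3.58.1, R 4.3.3; two-sided), with Benjamini-Hochberg adjustment over all 10076 genes or all probes kept. The script was tested on simulated data.

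Values on every array are given for the 8 called members of largest change in each set, for Gars, Kars and Eprs, and for members whose probes disagree in sign. Up to 4 called genes of largest change are named from each other list, besides Atf4, Asns, Trib3, Ddit3, Xpot, Aimp1, Aimp2, Eef1e1 and Eif2ak1. Maf1, Brf1, Trit1 and the per-array values of other members were added after their values were seen. Some items are not reported here. Members and lists were chosen with earlier results of these data known. Alternatives were the mean or the most variable probe of a gene, the floor on all 5 arrays or none, normexp, re-centred arrays, a trended robust prior, each array left out, and a replicate block.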

Additional observations from a re-analysis of the deposited data

How the results depend on the processing

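Over 13 alternatives, the 32 tested members gave 413 values beside those reported: 380 kept their side of the threshold, 27 were no longer called, 6 became called and none changed sign with a call. Of the calls, 10 of 12 cytosolic and 6 of 8 mitochondrial genes higher, and 1 of 2 cytosolic genes lower, held in every alternative run. Cytosolic genes called lower numbered 1 with the floor on all 5 arrays, which drops Farsa, 3 with probes averaged, normexp or the trended robust prior, where Hars was added, and 1 to 2 with an array left out. Class II genes called lower numbered 2 with probes averaged per gene, with normexp and with the trended robust prior, 0 with the floor on all 5 arrays, and 0 to 1 with an array left out. With an array left out, genes called lower numbered 1 to 2 in class I, 0 to 1 in the multisynthetase complex, 1 to 2 among the listed ATF4 targets and 1 to 2 in tRNA transcription, processing and export. Genes called higher then numbered 1 to 3 in tRNA editing, 3 to 5 in mitochondrial tRNA processing and 0 to 2 in selenocysteine charging, where 1 was higher with no floor, normexp or the trended prior. The cytosolic median was 0.50 with the mean of probes and 0.65 to 0.81 with an array left out. The mitochondrial median was 0.46 with the mean of probes, 0.26 with no floor and 0.29 to 0.52 with an array left out. The cytosolic set mean differed by 0.42 with the mean of probes, and the mitochondrial one by 0.48 with the floor on all 5 arrays, 0.33 with no floor and 0.48 with normexp. Causes were not tested.

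Replicates 1 and 2 of both groups share a number. Deviations from the group means correlated at -0.05 and 0.11, which does not establish a pairing. With the replicate number as a block, 2334 genes were called higher and 1902 lower, with 12 cytosolic synthetases higher and 2 lower and 7 mitochondrial ones higher. Farsa and Cars2 were then not called (adjusted p = 0.0709 and 0.0771) and Hars was called lower. Replicate 3 exists only under the wild-type label, so its own block term takes up that array. The differences of the block fit are therefore those found without wild-type replicate 3, as for Hars at -0.43 in both. With 2 arrays against 3, probes near the floor limit what can be measured.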

Other observations

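Selenocysteine is made on a tRNA that Sars first charges with serine. Of 7 genes of this route tested, 2 were called higher in the arrays labelled Flvcr-deleted, Sars (0.38) and Sephs2, which makes selenophosphate (0.51, SE 0.11), and 5 were not called, with a median of 0.09. Over all genes tested 21.8% were called higher. Without Flvcr-deleted replicate 2 neither was called (adjusted p = 0.281 and 0.0539).

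Of the eIF2 kinases, which precede ATF4 in the pathway, 3 were tested. Eif2ak4, which encodes GCN2, the kinase that senses uncharged tRNA, did not pass the floor. Eif2ak1, the heme-regulated kinase HRI, read 10.73 and 10.80 on the 2 arrays labelled Flvcr-deleted and 12.11, 12.04 and 11.85 on the 3 labelled wild-type, and fell by 1.24 (SE 0.11, limma, adjusted p = 4.91e-05). The mean of the Eif2ak1 probes differed by -0.98. Eif2ak2, the double-stranded RNA kinase PKR, fell by 0.85 (SE 0.10), and Eif2ak3, the endoplasmic reticulum kinase PERK, differed by 0.17 and was not called. Ppp1r15a, which directs the dephosphorylation of eIF2, fell by 1.83 (SE 0.11) on the same arrays.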
